A study of Mus musculus with 12 samples.

Results

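The data described here are the microRNAs (miRNAs) of the imprinted Dlk1-Dio3 domain that lie near Meg3 and Rtl1 on mouse chromosome 12, measured by small RNA sequencing in endoderm and early pancreatic cells. The members were chosen by name, from mir-770 in Meg3 to mir-370 in Rian, before the long miR-379 to miR-410 cluster begins. The rule found 39 of the 1053 entries of the count table. Of these, 24 are mature arms (of 633 in the table) and 15 are precursor entries (of 420).

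In all, 12 libraries of tdTomato-positive cells sorted from mouse embryos were used, 3 for each embryonic day (E8.5, E9.5, E10.5, E11.5). The E8.5 libraries held endoderm cells of whole embryos carrying the Foxa2-CreER allele (the Foxa2mcm knock-in), labelled after tamoxifen was given to the dam. The E9.5, E10.5 and E11.5 libraries held Pdx1-Cre-labelled cells of the trunk, called pancreas in the labels, with Cre driven by a Pdx1 transgene. All embryos carried the Rosa26 LSL-tdTomato reporter. The sires used for lineage tracing carried a mir-302 allele replaced by eGFP, and the sources used here do not give which of the sorted embryos inherited it. The Cre driver and the dissected region therefore change together with the stage between E8.5 and E9.5. The labels do not say that the libraries of a stage came from separate embryos or pools, so the p-values measure only the spread between these libraries.

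The Dlk1-Dio3 domain is imprinted: protein-coding genes such as Dlk1 and Rtl1 are expressed from the paternal chromosome, and the long noncoding RNAs Meg3 and Rian and the miRNAs are expressed from the maternal one. Rtl1 is a gene derived from a retrotransposon that is needed for normal placental vessels, and the miRNAs on its opposite strand are perfectly complementary to its transcript and can direct its cleavage. The human counterpart of the locus is known in the endocrine pancreas for its expression in islets. A miRNA pairs with its targets mainly through its seed, bases 2 to 8 counted from its 5′ end.

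The members fell into 3 position groups on the plus strand of chromosome 12 (GENCODE annotation of GRCm38, the mm10 assembly). On the Meg3 side, mir-770 (chr12:109563692-109563785) lies within Meg3, in an exon of 1 and an intron of 3 of the 4 Meg3 transcripts that span it. Also on that side, mir-673, mir-493, mir-337, mir-540, mir-665 and mir-3070-2 lie between Meg3 and Rtl1, from 30989 to 47591 bases after the Meg3 start. Opposite Rtl1, mir-431, mir-433, mir-127, mir-434 and mir-136 lie on the strand facing the Rtl1 exon, between chr12:109590447 and chr12:109595388. In Rian, mir-341, mir-1188 and mir-370 (chr12:109618258-109618336) lie in an intron of that noncoding RNA.

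All 24 mature arms were matched to RefSeq entries of GRCm38.p6. The 10 most abundant arms and miR-673-3p are shown 5′ to 3′ because the results turn on them. miR-673-3p is the arm seen at a single stage and in all 3 libraries of it. Capitals mark the seed.
miR-370-3p: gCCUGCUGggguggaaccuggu
miR-433-3p: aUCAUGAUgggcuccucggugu
miR-434-3p: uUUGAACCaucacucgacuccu
miR-431-5p: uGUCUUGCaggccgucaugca
miR-127-3p: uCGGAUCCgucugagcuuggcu
miR-337-5p: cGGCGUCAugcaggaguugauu
miR-136-3p: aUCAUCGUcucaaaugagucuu
miR-493-5p: uUGUACAUgguaggcuuuc
miR-770-3p: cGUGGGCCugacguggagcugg
miR-540-3p: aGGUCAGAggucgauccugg
miR-673-3p: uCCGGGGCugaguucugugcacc
No 2 of the 24 arms shared a seed, so these neighbouring miRNAs do not form a seed family. Of the mature arms in the RefSeq table outside the members, 4 shared a seed with a member (miR-370-5p, miR-540-3p, miR-673-5p and miR-3070-2-3p), and only miR-1193-3p among them was in the count table, with 1001 counts.

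The 9 mature arms opposite Rtl1 each matched the annotated Rtl1 transcript of 6358 bases without a mismatch, all inside the coding sequence. The sites of the 3 of highest mean CPM are shown as the transcript reads, 5′ to 3′, each the reverse complement of the arm above.
Site of miR-433-3p, bases 3749 to 3770: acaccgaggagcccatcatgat
Site of miR-434-3p, bases 965 to 986: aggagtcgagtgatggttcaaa
Site of miR-431-5p, bases 5072 to 5092: tgcatgacggcctgcaagaca
The site of miR-136-3p began nearest the transcript's 5′ end, at base 164. This complementarity is a property of the sequence and was not measured in these cells.

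The libraries held 53996 to 1103383 counts, and the 3 E9.5 libraries were the shallowest, at 53996 to 80075. Between 19 and 37 of the 39 members had at least 1 count in a library. In every library the counts of single entries piled up at a second level of 30.2 to 123 reads, with fewer entries between it and counts near 1. The density at that level was 1.87 (E9.5 replicate 3) to 8.13 times that at the trough below it, so the level is weakly set in some libraries, and a count below that level may stand for few molecules. Levels are given as CPM, the count relative to the library's total after scaling with edgeR's TMM factors, expressed for a total of 1000000. Across the libraries, 32 members passed the filter on low counts (20 mature arms and 12 precursors) among 571 tested entries. The 7 members that did not pass were miR-1188-5p (257 counts over all libraries), miR-127-5p (95), miR-431-3p (39), miR-3070-2-3p (29), mir-673 (160), mir-3070-2 (45) and mir-1188 (4). Of the 257 counts of miR-1188-5p, 191 were in E10.5 replicate 3.

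**Figure D1:**
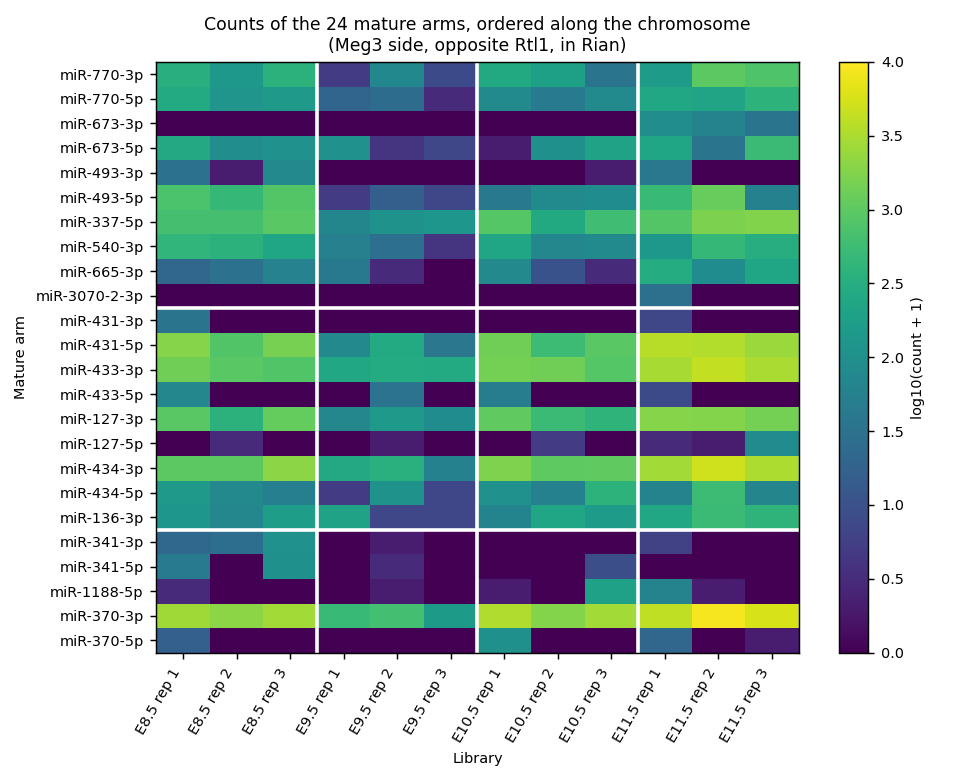
Counts of the 24 mature arms (rows, in order along the chromosome; white lines part the Meg3 side, the arms opposite Rtl1 and those in Rian) in the 12 libraries (columns), coloured by log10(count + 1). The bright rows are miR-370-3p and the leading arms opposite Rtl1, while miR-673-3p has counts only at E11.5 and the E9.5 columns are dark.

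Together the mature arms took 1.98% ± 0.146 (SD, n = 3) of all counts at E8.5 and 2.21% ± 0.675 at E9.5. The share was 4.00% ± 0.728 in the E10.5 libraries and 3.18% ± 1.08 in those of E11.5. The E10.5 libraries, at 3.27% to 4.72%, lay above all E8.5 libraries and all E9.5 libraries. The E11.5 libraries, at 2.46% to 4.42%, overlapped with those of E9.5 and E10.5. In these sorted bulk samples, more cells that express a miRNA and more of it per cell cannot be told apart.

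A few arms held most of the signal. The 5 most abundant held 78.4% of all mature member counts and the 10 most abundant 94.4%. miR-370-3p was the highest member in 11 of the 12 libraries; in E9.5 replicate 3 it was miR-433-3p. By mean CPM, miR-370-3p ranked 23rd among all mature arms of the table and held 27.7% of the mature member counts.

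miR-370-3p, the dominant arm of the hairpin in Rian, was at 4733, 5198 and 4035 CPM in the 3 E8.5 libraries. It was at 8022, 6920 and 3844 CPM at E9.5. The E10.5 libraries held 12584, 15289 and 10769 CPM, and the E11.5 libraries 9453, 8063 and 6896 CPM. All E10.5 libraries lay above those of the other stages, and all E11.5 libraries lay above those of E8.5. Between E10.5 and E8.5 it rose by a log2 fold change of 1.47 (SE 0.39, edgeR quasi-likelihood test, adjusted p = 0.0187). It also passed edgeR's test of any difference among the 4 stages (adjusted p = 0.0431), which called 15.9% of all entries. With 1 library left out in turn, that call was kept in 3 of 12 fits.

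miR-433-3p had the highest mean CPM over the 12 libraries among the arms opposite Rtl1, although miR-434-3p had more counts in all (19639 against 18073). It was at 2354, 2477 and 1203 CPM at E8.5 and at 3914, 3108 and 7055 CPM at E9.5. It reached 5584, 11836 and 3444 CPM at E10.5 and 6852, 3868 and 3783 CPM at E11.5. Its E8.5 libraries lay below all others, and its E10.5 libraries spread over the widest range. The rise from E8.5 to E10.5 was 1.79 on the log2 scale (SE 0.55, edgeR adjusted p = 0.0451).

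These are the only calls among the 32 tested members between E10.5 and E8.5, a share of 6.25%. Of all 571 entries, 4.38% were called higher and 8.58% in either direction, so the members' share is near the background and is no result about them as a list. Both calls turned on single libraries: without E8.5 replicate 1, 2 or 3 in turn, edgeR's adjusted p was 0.0888, 0.0660 and 0.119 for miR-370-3p and 0.0936, 0.105 and 0.186 for miR-433-3p. Without E10.5 replicate 2 it was 0.116 and 0.252. With scaling by library size alone it was 0.0537 and 0.0549. The log2 fold changes in these fits ranged from 1.29 to 1.59 for miR-370-3p and from 1.17 to 2.02 for miR-433-3p. This comparison was added after the levels had been seen.

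miR-434-3p was at 1709, 2521 and 2938 CPM at E8.5 and at 4271, 3727 and 1441 CPM at E9.5. The E10.5 libraries held 6364, 8821 and 4110 CPM of it, and the E11.5 libraries 6378, 4769 and 3858 CPM. All E10.5 and E11.5 libraries lay above those of E8.5, yet its E10.5 difference from E8.5 (1.43 on the log2 scale, SE 0.52) did not pass (edgeR adjusted p = 0.0816). miR-431-5p, from a hairpin studied in muscle regeneration, was at 3300, 2154 and 2159 CPM at E8.5 and at 1218, 2915 and 936 at E9.5. The E10.5 libraries held 5097, 4698 and 3701 CPM, and the E11.5 libraries 8338, 3113 and 2970 CPM. Its E9.5 libraries lay below all those of E10.5 and E11.5; the difference was 1.41 for E10.5 (SE 0.59, edgeR adjusted p = 0.197) and 1.50 for E11.5 (SE 0.59, edgeR adjusted p = 0.184).

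miR-127-3p, the best studied of the arms that target Rtl1, was at 1645, 958 and 1613 CPM at E8.5 and at 1120, 1559 and 2175 CPM at E9.5. The E10.5 libraries held 4000, 4552 and 1558 CPM, and the E11.5 libraries 4242, 1654 and 1776 CPM. Its values overlapped between every pair of stages but E8.5 and E11.5. miR-136-3p stood at 216, 181 and 241 CPM at E8.5 and at 540, 482 and 471 CPM at E11.5. Between them it scattered, with 3248, 64.1 and 152 CPM in the E9.5 libraries and 239.8, 1924 and 608 CPM in those of E10.5. The 3248 CPM of E9.5 replicate 1 rests on 200 counts.

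**Figure D2:**
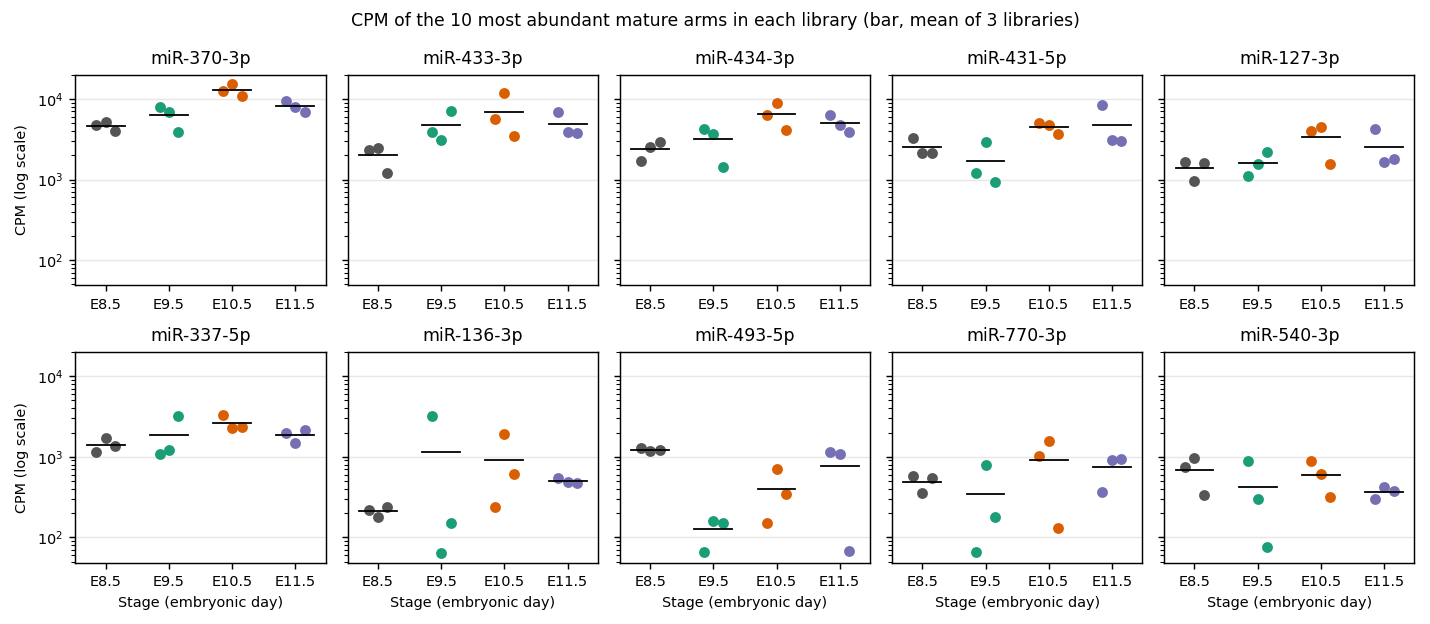
CPM (log axis) of the 10 most abundant mature arms in each of the 12 libraries, by stage; points are libraries and bars are means of 3. The E10.5 points of miR-370-3p lie above those of every other stage, and the E9.5 points of miR-493-5p lie below those of E8.5.

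On the Meg3 side, miR-337-5p was the most abundant arm, at 1131, 1708 and 1362 CPM at E8.5 and at 1088, 1217 and 3211 CPM at E9.5. The E10.5 libraries held 3308, 2293 and 2330 CPM, and the E11.5 libraries 1967, 1464 and 2127 CPM. Only the E10.5 libraries lay above all E8.5 libraries. miR-770-3p, from the hairpin inside Meg3, was at 571, 354 and 541 CPM at E8.5 and at 65.0, 779.6 and 177 CPM at E9.5. It stood at 1035, 1580 and 132 CPM in the E10.5 libraries and at 365, 906 and 949 CPM in those of E11.5. miR-540-3p was at 752, 974 and 340 CPM at E8.5 and at 893, 299 and 75.9 CPM at E9.5. It stood at 875, 609.8 and 319 CPM in the E10.5 libraries and at 303, 418 and 379 CPM in those of E11.5. Neither miR-770-3p nor miR-540-3p separated any pair of stages in all libraries.

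miR-493-5p had another course. It was at 1268, 1178 and 1210 CPM in the E8.5 libraries (733, 456 and 837 counts) and at 65.0, 160.2 and 152 CPM in those of E9.5 (4, 15 and 6 counts). The E10.5 libraries held 152, 704 and 343 CPM, and the E11.5 libraries 1151, 1073 and 67.3 CPM, with replicate 3 far below the others. All E8.5 libraries lay above all E9.5, E10.5 and E11.5 libraries. The difference between E9.5 and E8.5 was −3.28 on the log2 scale (SE 1.13) and did not pass (edgeR adjusted p = 0.101).

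miR-673-3p was counted at E11.5 alone, with 90, 60 and 33 counts, and had 0 counts in the other 9 libraries. Against a floor of 3 counts over the 3 libraries of a stage, its E11.5 mean of 99.9 CPM was at least 55.2-fold higher than at E8.5, at least 21.2-fold higher than at E10.5 and at least 6.49-fold higher than at E9.5. It passed the filter on low counts through the E11.5 libraries alone, the group where it is high. Its edgeR adjusted p for any difference among the stages (0.0442, in a test that called 15.9% of all entries) therefore supports nothing beyond these counts, and it passed in no comparison of 2 stages. Measured by each library's second count level, its E11.5 counts equal 2.98, 0.488 and 0.397 levels, so they may stand for few molecules. With 1 library left out in turn, the call of miR-673-3p among the 4 stages was kept in 2 of 12 fits and that of miR-370-3p in 3 of 12. The opposite arm, miR-673-5p, was seen in all 12 libraries, from 3.81 to 1705 CPM.

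The 2 arms of miR-341, in Rian, were seen mainly at E8.5: 21, 27 and 104 counts of miR-341-3p and 44, 0 and 101 of miR-341-5p. miR-341-3p had 0 counts in all E10.5 libraries. Against the floor of 3 counts over those libraries, its E8.5 mean was at least 18.1-fold higher. Its E8.5 counts equal 0.290, 0.443 and 2.17 second count levels, so they may stand for few molecules. The bound covers counting error only. This arm passed the filter on low counts through the E8.5 libraries alone, the group where it is high. Its edgeR adjusted p for that comparison (0.118) therefore supports nothing beyond these counts. It had 1 count over the E9.5 libraries and 5 over those of E11.5. miR-493-3p had 0 counts at E9.5 against 31, 1 and 76 at E8.5.

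The remaining tested arms were low and scattered. miR-434-5p ranged from 65.0 to 1484 CPM, miR-770-5p from 50.6 to 561 CPM and miR-665-3p from 0 to 691 CPM. miR-433-5p had counts in 4 of 12 libraries (7 to 70 counts), and miR-370-5p also in 4 (1 to 99 counts). No difference of these arms passed in a comparison of 2 stages.

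In most hairpins one arm held nearly all counts. The 3p arm held 99.6% of the miR-370 counts, 99.1% of miR-433, 99.0% of miR-127 and 92.4% of miR-434. The 5p arm held 99.8% of the miR-431 counts, 96.4% of miR-493 and 90.2% of miR-673. In miR-770 the 3p arm held 67.2% over all libraries and from 17.4% to 82.3% in single libraries, with the 5p arm higher in 3 of 12. The sparse miR-341 was the most even, with 50.5% on the 3p arm and each arm higher in 3 libraries, and the 3p arm of miR-673 held up to 64.5% in a single library.

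The 15 precursor entries held 7.24% ± 2.74 (SD, n = 3) of member counts at E8.5 and 8.71% ± 8.76 at E9.5. They held 8.27% ± 3.59 in the E10.5 libraries and 7.39% ± 1.18 in those of E11.5. Of them, 12 passed the filter, with mean levels over the libraries from 24.3 to 629.0 CPM. None passed in any comparison of 2 stages. Their E9.5 values rest on 0 to 124 counts a library.

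In the comparisons of adjacent stages no member passed. Between E9.5 and E8.5, 5.6% of all entries were called in either direction; 0 of 32 members were called by edgeR and 2 had an unadjusted p under 0.05 (20% of all entries did). DESeq2 called 4 of them, beside 13.8% of all entries. Between E10.5 and E9.5 the background was 4.38%, with 0 members called by edgeR, 6 at an unadjusted p under 0.05 (18.2% of all entries). DESeq2 called 4, beside 11.9% of all entries, so these shares too are near the background. Between E11.5 and E10.5 the background was 0.35%, with 0 members called by edgeR and 2 at an unadjusted p under 0.05 (10.7% of all entries). DESeq2 called 0, beside 1.4% of all entries. Over longer spans, 0 members were called by edgeR between E11.5 and E9.5 (background 4.55%, 7 at an unadjusted p under 0.05 beside 18.4% of all entries). DESeq2 called 0 there, beside 11.2% of all entries. Between E11.5 and E8.5, 0 were called by edgeR (background 11.6%, 4 at an unadjusted p under 0.05 beside 23.3% of all entries). DESeq2 called 0 there too, beside 16.5% of all entries. A count of 0 here does not show that levels were alike, since the entries varied widely between replicates.

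The tested mature arms as a list are described by their medians. The median log2 fold change of the 20 tested mature arms was 0.10 between E9.5 and E8.5, where that of all 377 tested mature arms was −0.80. Between E10.5 and E9.5 it was 0.62 beside 0.10, and between E11.5 and E10.5 it was −0.43 beside 0.07. Between E10.5 and E8.5 it was 0.90 beside −0.28, with 14 arms higher and 5 lower; between E11.5 and E8.5 it was 0.57 beside −0.07. Between E11.5 and E9.5 it was 0.51, below the 0.61 of all tested mature arms. An arm was set to its bound where it had 0 counts in 1 stage and counts in all 3 libraries of the other. That held for 0 arms between E10.5 and E9.5 and for 1 arm in each other comparison, and the medians stayed the same. Other arms with 0 counts in a stage kept their fitted values. The neighbouring miR-379 to miR-410 cluster of the same domain had 62 mature arms in the table and 49 tested. Its median was 0.56 between E10.5 and E8.5, beside the −0.28 of all tested mature arms. Of its 49 tested arms, 3 were called higher and 0 lower. Of all 571 entries, 4.38% were called higher and 8.58% in either direction, so these calls are near the background.

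**Figure D3:**
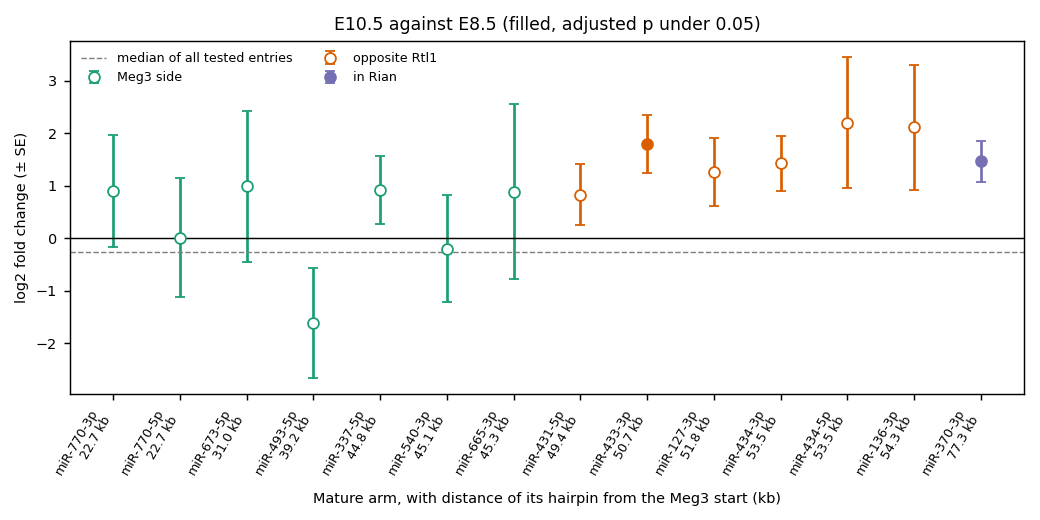
Log2 fold change (± SE) of E10.5 against E8.5 for the 14 most abundant mature arms, ordered along the chromosome, with the distance of each hairpin from the Meg3 start. Filled points (miR-433-3p and miR-370-3p) had an adjusted p under 0.05, the dashed line is the median of all tested entries (−0.26), and miR-493-5p is the one arm well below 0.

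Counts were also summed over the mature arms, as a description with no test. The summed level, scaled with the factors of its own fit, was 16245 ± 1442 CPM (SD, n = 3) at E8.5, with 25317 ± 3220 CPM in the E9.5 libraries. It was 42916 ± 13583 CPM in the E10.5 libraries and 30915 ± 9097 CPM in those of E11.5. On this scaling the E8.5 libraries (15239 to 17897 CPM) lay below all others. The E9.5 libraries (22663 to 28900 CPM) lay below those of E10.5 (30773 to 57584 CPM). As a share of all counts, the E9.5 libraries (1.43% to 2.64%) overlapped with those of E8.5 (1.86% to 2.14%). The fitted log2 difference was 0.64 between E9.5 and E8.5 (SE 0.28), 0.76 between E10.5 and E9.5 (SE 0.28) and −0.47 between E11.5 and E10.5 (SE 0.28). It was 0.29 between E11.5 and E9.5 (SE 0.28), 0.93 between E11.5 and E8.5 (SE 0.28) and 1.40 between E10.5 and E8.5 (SE 0.28). The E9.5 difference from E8.5 ranged from 0.11 to 1.01 over the alternatives, and that between E11.5 and E9.5 turned to −0.30 with RLE scaling or DESeq2. Without E9.5 replicate 1, E8.5 replicate 3 or E11.5 replicate 3 in turn, the E9.5 difference from E8.5 was 0.13, 0.29 and 0.31. With the scaling factors of the table of single entries it was 0.34.

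By position, the arms opposite Rtl1 summed to 8594 ± 823 CPM (SD, n = 3) in the E8.5 libraries, 12979 ± 1126 in those of E9.5, 23306 ± 8847 in those of E10.5 and 18192 ± 8040 in those of E11.5. Those in Rian summed to 4712 ± 405, 6332 ± 2232, 13419 ± 1903 and 8262 ± 1622 CPM at the same stages. Those on the Meg3 side summed to 4421 ± 419, 3833 ± 1083, 5638 ± 1212 and 5067 ± 981 CPM. Most of the Rian sum was miR-370-3p, with means of 4655 CPM at E8.5 and 12881 CPM at E10.5 in the fit of single entries. The Rian values therefore largely repeat those of that arm. Both arms of miR-341 in Rian had lower means at E10.5 than at E8.5, while miR-370-5p and miR-1188-5p had higher ones. Each of these 2 higher means rests on 1 library, with 99, 0 and 0 counts of miR-370-5p and 1, 0 and 191 of miR-1188-5p at E10.5. Between E10.5 and E8.5 the fitted log2 difference was 1.44 (SE 0.35) opposite Rtl1, 1.51 (SE 0.39) in Rian and 0.35 (SE 0.44) on the Meg3 side; the libraries did not overlap in the first and second groups and overlapped in the last. After dividing each count by its library's second level, these differences were 0.99, 1.06 and −0.14, so the direction on the Meg3 side turned. The difference between the groups was not tested.

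**Figure D4:**
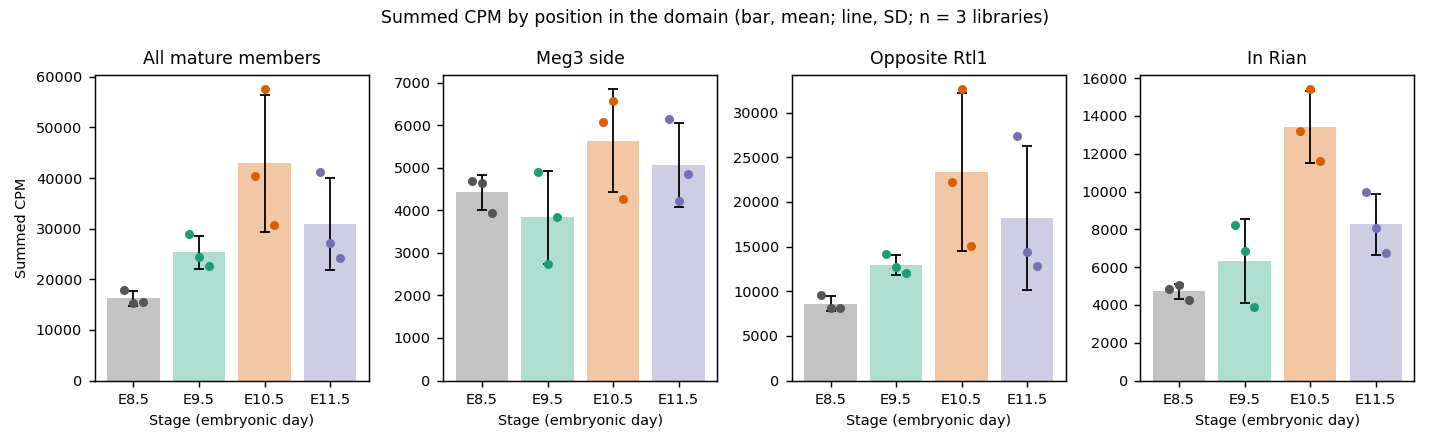
Summed CPM (linear axes from 0) of all mature members and of the 3 position groups by stage; bars are means, lines are SD and points are the 3 libraries of a stage. The E10.5 bars are highest in all panels, and the means of the Meg3 side run from 3833 to 5638 CPM. The total and the position groups come from separate fits, each with its own scaling factors, so the groups do not add up to the total.

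As a share of the mature member counts, which needs no scaling, the Meg3 side held 24.9% ± 0.965 (SD, n = 3) in the E8.5 libraries, 16.6% ± 3.80 in those of E9.5, 13.5% ± 1.33 in those of E10.5 and 16.6% ± 2.98 in those of E11.5. All E8.5 libraries (24.2% to 26.0%) lay above all others. On this side miR-493-5p had 733, 456 and 837 counts in the E8.5 libraries and 4, 15 and 6 in those of E9.5. Its mean was 1219 CPM at E8.5 and 126, 400 and 764 CPM at the later stages. The share without this arm was not computed, so the separation is not shown for the other arms. The arms opposite Rtl1 held 48.5% ± 2.45, 56.6% ± 4.46, 54.0% ± 5.59 and 56.4% ± 5.72 at the 4 stages, and those in Rian 26.6% ± 1.56, 26.9% ± 6.26, 32.5% ± 4.74 and 27.0% ± 3.71.

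The marker miRNAs of cell types also stood at other levels from stage to stage. The 6 epithelial miRNAs fixed as markers (the miR-200 family and miR-375) summed to 25250 to 29332 CPM at E8.5, with 37728 to 50049 CPM in the E9.5 libraries. They reached 71004 to 98819 CPM in the E10.5 libraries and 65874 to 101956 CPM in those of E11.5. miR-122-5p, the hepatocyte marker, was at 463 to 593 CPM at E8.5 and at 38765 to 130754 CPM in the later stages. The 6 mesenchymal markers summed to 6714 to 13171 CPM at E8.5, with 1410 to 4982 CPM in the E9.5 libraries. They were at 3384 to 11400 CPM in the E10.5 libraries and at 3779 to 8076 CPM in those of E11.5. Most of their counts were miR-143-3p, and others went the other way: of the 5 tested, 3 had a higher fitted level at E9.5 than at E8.5, and 2 were called higher between E11.5 and E8.5. The muscle markers (3 of 4 in the table, 1 tested) summed to 6286 to 26546 CPM at E8.5 and 5278 to 26855 in the E9.5 libraries. They summed to 266 to 3518 CPM in the E10.5 libraries and 280 to 1711 in those of E11.5. Most of their counts were miR-1a-3p (25631 over the E8.5 libraries and 1788 over those of E11.5). At these 2 stages miR-133a-3p had 77 and 0 counts, while miR-206-3p went the other way with 14 and 314. The neural markers (4 of 6) summed to 996 to 1966 CPM at E8.5 and 97.4 to 1164 in the E9.5 libraries. They summed to 171 to 773 CPM in the E10.5 libraries and 864 to 948 in those of E11.5. Most of their counts were miR-128-3p (1939 over the E8.5 libraries and 1875 over those of E11.5). At these 2 stages miR-9-3p had 95 and 0 counts, miR-124-3p 215 and 1, and miR-9-5p 159 and 281. Endothelial markers (2 of 2) summed to 1821 to 2281 CPM at E8.5 and at most 429 CPM in later libraries, and erythroid markers (2 of 4) to at most 834 CPM in any library. The leukocyte markers (2 of 3) reached 2655 CPM at E9.5 and at most 59.3 CPM elsewhere. Their part in the levels of the members was not tested.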

How the data were processed

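Small RNA of sorted tdTomato-positive mouse cells was sequenced in 12 libraries. The authors extracted RNA with the miRNeasy micro kit, made NEXTflex small RNA libraries, trimmed adapters and the random bases beside them without using these as molecular identifiers, and mapped and counted reads with COMPSRA on mm10. The deposited values are raw counts per miRNA entry, not normalized, for mature arms and precursors. Here edgeR 4.0.16 (R 4.3.3) was run on these counts with TMM factors, filterByExpr (minimum count 10, minimum total 15) and stage as the factor. The quasi-likelihood test was used with Benjamini-Hochberg adjustment over the 571 entries tested, called at an adjusted p under 0.05, two-sided. Counts of mature members were also summed into 1 entry in a fit of their own. The sums of the position groups came from a further fit with its own scaling factors. All these sums are given without a test. DESeq2 1.42.0 was an alternative. All members are accounted for: the 10 arms of highest mean CPM and every member called by edgeR have their value in each library. The members and lists were chosen with earlier results of these data known. The library names carry a number that differs between the stages and is shared within each; what it stands for is not given in the sources used here, and it cannot be told apart from the stage. Sequences and matches come from RefSeq (GRCm38.p6). Depth limits precision, most at E9.5, and without molecular identifiers the floor of 3 counts covers counting error only.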

Additional observations from a re-analysis of the deposited data

How the results depend on the processing

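Each comparison was repeated with RLE scaling, library size alone, no filter, DESeq2, only the libraries compared, the replicate block, mature arms alone, and each library left out in turn. Counts divided by the second count level, and sums with the scaling factors of the table of single entries, were added after seeing the data. Apart from the replicate block, the number of members called changed in the following of these alone. Between E9.5 and E8.5 it was 1 with RLE scaling and 4 with DESeq2, where 8.76% and 13.8% of all entries were called; between E10.5 and E9.5 it was 4 with DESeq2, all precursors (mir-127, mir-370, mir-433 and mir-434, named after their values were seen), beside 11.9% of all entries. Between E11.5 and E8.5 it was 4 with only the libraries compared and 1 with counts divided by the second level, beside 20.1% of all 527 entries tested and 61.2% of 98. Between E10.5 and E8.5 it was 0 with library size alone and 4 both with DESeq2 and with only the libraries compared, beside 7.36%, 20.3% and 22.5% of all entries. It was 0 to 3 with a library left out, beside 4.33% to 9.34% of all entries. Among the 4 stages it was 0 to 2 with a library left out, beside 8.99% to 16% of all entries. For any difference among the 4 stages it was 1 with RLE scaling, with library size alone and with divided counts, 0 without the filter and 4 with DESeq2, in fits that called 12.3% to 65.3% of all entries.

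The summed level between E9.5 and E8.5 was 1.01 on the log2 scale with RLE scaling and with DESeq2, 0.16 with library size alone, 0.99 with only the libraries compared and 0.11 with divided counts, and 0.13 to 0.70 with a library left out. Between E10.5 and E9.5 it was 0.43 with RLE scaling and with DESeq2, and 0.46 to 1.16 with a library left out. Between E11.5 and E9.5 it was −0.30 with RLE scaling and with DESeq2, and 0.26 to 0.68 with a library left out. Between E11.5 and E8.5 it was 0.42 with divided counts; between E10.5 and E8.5 it was 1.01 with library size alone and 0.87 with divided counts. With divided counts the Meg3 side was at −0.26 between E11.5 and E8.5. The cause was not tested. RLE scaling moved the median of all entries by 0.64 between E9.5 and E8.5 and by 0.11 between E10.5 and E8.5, and library size alone by −0.25 and −0.14. Over all entries RLE scaling moved the calls from 23 higher and 9 lower to 44 and 6 between E9.5 and E8.5, from 9 and 16 to 1 and 23 between E10.5 and E9.5, and from 7 and 19 to 0 and 27 between E11.5 and E9.5.

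The labels give the stages the same replicate numbers. Of 18 pairs with the same number, 1 correlated above 0.1 in its deviations from the stage means (lowest −0.148). Of the 12 libraries, 3 correlated best with their own number. No pairing by number was seen. This check cannot exclude one, since pairs of any numbers correlated weakly (−0.148 to 0.128). With the replicate block 1 member was called between E10.5 and E8.5 (miR-370-3p), beside 7.18% of all entries. In the other comparisons of 2 stages 0 members were called, beside 0.525% to 10.7% of all entries. For any difference among the 4 stages 0 were called, beside 14.2% of all entries.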
